A study of Mus musculus with 6 samples.

Results

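The genes described here are 36 genes that mark the lymphocytes of the mouse, namely T cells, B cells and natural killer (NK) cells, read in lungs with and without an activated human SRY transgene. A member was taken as every array probe whose gene symbol equalled 1 of the 36 names, whatever its values. Of the 36 genes, 32 had at least 1 probe, 51 probes in all, among the 25697 probes and 18138 symbols of the table. The T cell accounts for 21 names, the B cell for 8 and the NK cell and its cytotoxic granules for 6, and Ltb, a cytokine made by all 3 kinds of cell, was counted with none of them. Cd5, Cd79a, Cd72 and Gzma matched no row and were not analysed here.

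All 6 lungs came from male FVB mice (FVB/N in the methods) at postnatal day 6. Of these, 3 were labelled hSRY-OFF and 3 hSRY-ON, and total RNA of each was hybridised to 1 Illumina MouseRef-8 BeadChip array. In hSRY-ON mice, a single-copy transgene at the H11 locus, Signalox-hSRY, expresses FLAG-tagged human SRY and EGFP from the CAG promoter, which is active in most tissues, because a DsRed2 stop cassette was removed by Cre protein carried over from the oocyte of a Ddx4-Cre mother. Pups that had inherited Ddx4-Cre as well were left out of the hSRY-ON group. By the methods, hSRY-OFF mice carry the same transgene without recombination, so that it is silent and DsRed2 is expressed, whereas the study's text also speaks of littermates without the transgene as controls. The transgene comes from 1 integration, is on in every cell type that uses the promoter, lymphocytes and stroma alike, and was not itself measured here, so the labels were not checked against it. The 3 arrays of a group are biological triplicates by the study's methods.

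Lymphocytes arise from bone marrow and liver precursors, and T cells mature in the thymus before they enter blood and tissues. A T cell reads antigen through the T cell receptor, which signals through the CD3 chains and the zeta chain (Cd247), while CD4 or CD8 binds the presenting molecule and brings the kinase Lck. A B cell signals through its surface antibody with the paired chains Cd79a and Cd79b. NK cells and killer T cells carry granules of perforin and granzymes. In the lung these cells sit in the blood vessels, the septa and the airway wall.

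Of 16 T cell genes tested, 9 were lower in hSRY-ON lungs, among them chains of the receptor complex, the CD8 beta chain and the surface receptors Cd2 and Cd6. By the same test, 13.3% of all 13841 probes tested were lower and 13.6% higher. Cd8b1 was 4.71-fold lower, Cd3g 3.47-fold, Cd3e 3.36-fold, Cd6 2.98-fold and Cd2 2.58-fold. Without background correction these differences were smaller but still called, at -1.03 in log2 for Cd8b1, -1.12 for Cd3g, -0.83 for Cd3e, -0.56 for Cd6 and -0.65 for Cd2. The NK and cytotoxic genes Nkg7 and Klrd1 were also lower, and Thy1 was the 1 member that was higher, by 1.96-fold. Cd79b, the 1 B cell gene that could be tested, was not called. Tests were limma's moderated test on background-corrected, quantile-normalised log2 intensities with Benjamini-Hochberg adjustment over all probes tested, and a probe is called here where its adjusted p is under 0.05.

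The CD3 genes, whose products form 1 complex, lie together on the chromosome. In the RefSeq gene order Cd3g, Cd3d and Cd3e are neighbours, and Cd3g and Cd3d start back to back on opposite strands, with 854 bases between their promoter windows. RefSeq promoters (build GRCm38.p6, from 250 bases before to 50 bases after a start) were found for 25 of the 36 genes, and those of the 4 signalling chains are printed because 3 of the 4 were called lower together. Each is given 5′ to 3′ on the strand of its gene: Cd3g at chr9:44980382-44980681 (minus strand), Cd3d at chr9:44981536-44981835 (plus), Cd3e at chr9:45009562-45009861 (minus) and Cd247 at chr1:165788431-165788730 (plus). Capitals mark matches, on either strand, to 5 short motifs: GGAAGT of ETS factors, CAGGTG of E-box proteins, TGTGGT of RUNX factors, ATCAAAG of TCF7 and LEF1, and AACAAT of the SOX family, to which SRY belongs.
Cd3g: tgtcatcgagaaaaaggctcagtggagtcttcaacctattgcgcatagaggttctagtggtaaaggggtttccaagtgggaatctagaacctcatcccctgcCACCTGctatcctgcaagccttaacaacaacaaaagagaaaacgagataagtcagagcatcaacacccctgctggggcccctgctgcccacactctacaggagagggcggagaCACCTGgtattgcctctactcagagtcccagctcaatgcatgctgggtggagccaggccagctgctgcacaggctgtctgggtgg
Cd3d: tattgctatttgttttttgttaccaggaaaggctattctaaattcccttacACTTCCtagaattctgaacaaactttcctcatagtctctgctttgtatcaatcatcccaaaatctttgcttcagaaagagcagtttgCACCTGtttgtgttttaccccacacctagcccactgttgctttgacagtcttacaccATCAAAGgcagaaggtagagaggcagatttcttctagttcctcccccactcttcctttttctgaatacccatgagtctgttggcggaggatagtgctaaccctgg
Cd3e: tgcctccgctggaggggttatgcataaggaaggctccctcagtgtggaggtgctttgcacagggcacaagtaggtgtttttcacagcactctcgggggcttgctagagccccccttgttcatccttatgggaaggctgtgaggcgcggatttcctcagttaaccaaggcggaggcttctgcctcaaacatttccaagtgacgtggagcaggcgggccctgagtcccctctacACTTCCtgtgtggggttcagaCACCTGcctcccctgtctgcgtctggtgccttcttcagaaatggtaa
Cd247: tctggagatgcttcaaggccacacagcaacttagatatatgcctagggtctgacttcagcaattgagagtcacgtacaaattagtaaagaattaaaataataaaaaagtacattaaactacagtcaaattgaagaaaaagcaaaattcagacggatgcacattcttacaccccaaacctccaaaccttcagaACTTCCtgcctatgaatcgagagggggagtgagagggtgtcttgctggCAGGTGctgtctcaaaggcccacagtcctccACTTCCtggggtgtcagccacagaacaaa

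The E-box letters occurred in the windows of all 4 chains and the ETS letters in those of Cd3d, Cd3e and Cd247. In Cd247 the ETS letters stood on both sides of the start, 58 bases before it and 22 bases after it. The TCF letters occurred in Cd3d, 55 bases before its start, and in no other member's window. Across the 33 promoters of the 25 member genes, 19 held the E-box letters, 18 the ETS letters, 8 the RUNX letters and 3 the SOX letters, against 20.2%, 23.8%, 16.8% and 10.7% of the 32851 mouse promoters of the same length. The TCF letters were in 3.73% of all promoters. The 3 SOX matches were in Cd22, Cd8a and Zap70, and none of the 9 promoters of the 7 genes called lower that have one held these letters. Matches of different motifs shared a base in 0 of these promoters, and a match is a description of the letters, not of binding.

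Of the 51 member probes, 28 were tested, those whose signal stood above the array's negative controls (a detection p below 0.05) on 3 or more arrays. Of the 23 others, 17 were detected on no array and 6 on 1 or 2. Of the 28, 16 were called, where 26.9% of the 13841 probes tested were. By direction, 15 were called lower, against 13.3% of all probes tested, and 1 was called higher, against 13.6%. On 16 of the 28 the arrays of both groups did not overlap with hSRY-ON below, against 24.1% of all probes tested, and on 2 with hSRY-ON above, against 22.4%. The median log2 difference, hSRY-ON minus hSRY-OFF, was -0.94 over the 28 member probes and -0.03 over all probes tested. These counts are not independent of the detection filter: of the 28, 2 were detected on every hSRY-OFF array but 0 hSRY-ON arrays, and 5 on every hSRY-OFF array and 1 of the hSRY-ON arrays, and a probe that passes through the hSRY-OFF arrays alone has to be dimmer in hSRY-ON. All 6 arrays detected 16 of the 28. When only such probes were tested, 6 of these 16 were called lower, those of Cd3e, Cd3g, Lck, Cd2 and Cd27, where 14.3% of the probes tested were.

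**Figure D1:**
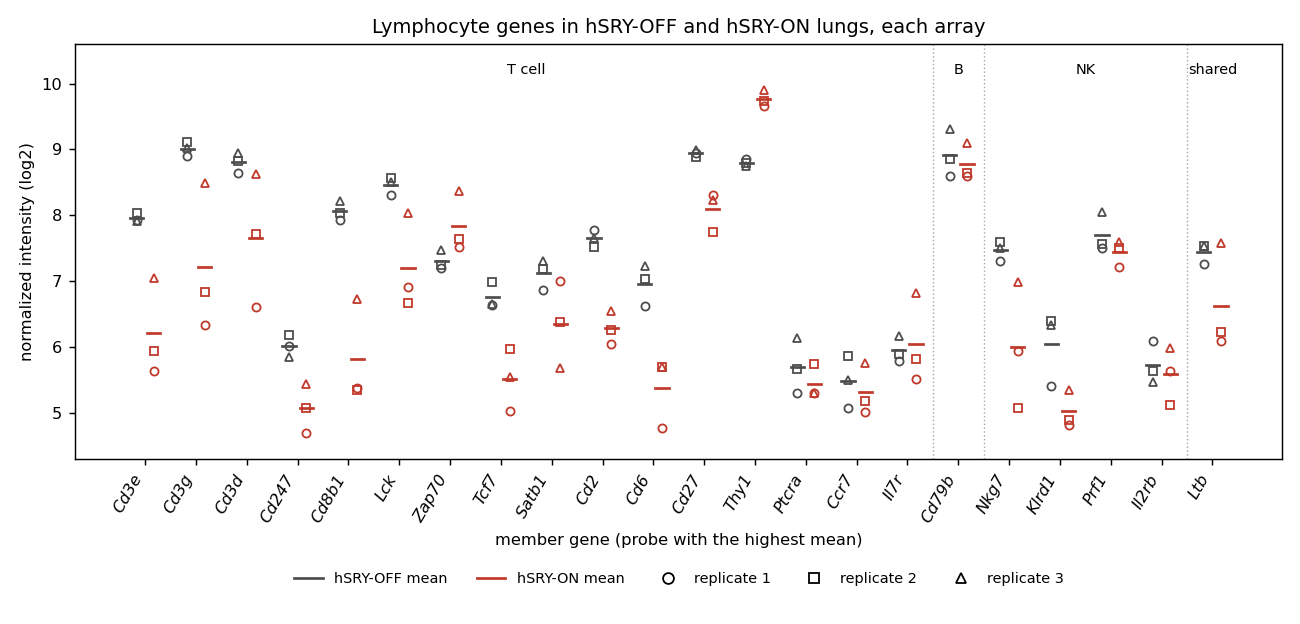
Normalised log2 intensity (y axis) of the 22 tested member genes (x axis, the brightest tested probe of each, grouped as T cell, B cell, NK and shared) on each of the 6 arrays. Grey is hSRY-OFF, red is hSRY-ON, the symbol is the replicate number and the horizontal bar the mean of 3. Cd8b1 ran from 7.93 to 8.22 in hSRY-OFF and from 5.35 to 6.74 in hSRY-ON, whereas Thy1 was above 9.6 on every hSRY-ON array and below 8.9 on every hSRY-OFF array.

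Within the T cell receptor complex, Cd3e, which anchors the CD3 module, read 7.93, 8.03 and 7.91 (normalised log2 intensity) in hSRY-OFF replicates 1, 2 and 3, and 5.64, 5.95 and 7.04 in hSRY-ON. Its difference was -1.75 (SE 0.34, n = 3 arrays a group, limma adjusted p = 0.0112). Each hSRY-ON array was below each hSRY-OFF array, and hSRY-ON replicate 3 was nearest to them. Cd3g, the gamma chain, read 8.90, 9.11 and 9.02 against 6.34, 6.84 and 8.48, a difference of -1.79 (SE 0.50, limma adjusted p = 0.0375). Again the arrays did not overlap, and the hSRY-ON spread (SD 1.12) was wider than the hSRY-OFF spread (SD 0.11).

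Cd3d, the delta chain, was not called. It read 8.64, 8.82 and 8.95 in hSRY-OFF and 6.61, 7.72 and 8.62 in hSRY-ON, a difference of -1.15 (SE 0.45, limma adjusted p = 0.101). Its hSRY-ON replicate 3 lay just under the lowest hSRY-OFF array. Without hSRY-ON replicate 3, Cd3d was called lower (-1.63, limma adjusted p = 0.0149). Cd247, the zeta chain that holds most of the signalling motifs, read 6.01, 6.19 and 5.86 against 4.70, 5.08 and 5.44, a difference of -0.95 (SE 0.20, limma adjusted p = 0.0158). In hSRY-ON 1 array detected it. Of the other Cd247 probes, neither tested, 1 was detected on hSRY-OFF replicate 1 alone and 1 on no array. The call of Cd247 was lost when hSRY-OFF replicate 1 (adjusted p = 0.0613) or 2 (0.0674) was left out, or with a single scaling factor and no background correction (-0.27, 0.0609).

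The 2 coreceptors of killer and helper T cells gave an uneven picture. Cd8b1, the beta chain of CD8, had the largest difference of the members tested, at 7.93, 8.03 and 8.22 in hSRY-OFF against 5.39, 5.35 and 6.74 in hSRY-ON (-2.24, SE 0.36, limma adjusted p = 0.00648). Only hSRY-ON replicate 3 was detected among the 3 hSRY-ON arrays. A second, dimmer Cd8b1 probe was not tested, with 2 hSRY-OFF arrays and 0 hSRY-ON arrays detecting it. Its neighbour on the chromosome, Cd8a, the alpha chain, and Cd4, the helper coreceptor, were detected on none of the 6 arrays by their single probes, so neither could be compared.

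Lck, the kinase that starts receptor signalling, read 8.31, 8.56 and 8.51 against 6.92, 6.67 and 8.04, a difference of -1.25 (SE 0.34, limma adjusted p = 0.0335). Zap70, the kinase recruited next, stood on the other side. It read 7.20, 7.26 and 7.48 in hSRY-OFF and 7.52, 7.65 and 8.37 in hSRY-ON, a difference of 0.54 that was not called (SE 0.23, limma adjusted p = 0.127). The hSRY-ON arrays of Zap70 were all above the hSRY-OFF arrays, the opposite order to Lck and Cd3e, and a second Zap70 probe differed by 0.51 with overlapping arrays (adjusted p = 0.106). The remaining Zap70 probe was not tested: it was detected on 2 hSRY-OFF arrays but 0 hSRY-ON arrays, with means of 5.29 and 5.18. Lat, the adaptor that Zap70 phosphorylates, was detected on no array. The calls of Cd3g and Lck were each lost without any 1 of hSRY-OFF replicates 1, 2 and 3 or hSRY-ON replicates 1 and 2, with adjusted p between 0.0593 and 0.115 for Cd3g and between 0.0657 and 0.108 for Lck. Both were also lost with no detection filter (0.0616 and 0.0537).

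Tcf7, the transcription factor that sets and keeps the T cell fate, was lower by both of its probes. The brighter read 6.65, 6.98 and 6.66 in hSRY-OFF and 5.04, 5.98 and 5.54 in hSRY-ON (-1.24, SE 0.24, limma adjusted p = 0.0119). The dimmer was detected on all 3 hSRY-OFF arrays and on 0 hSRY-ON arrays, so its difference is a bound: at least 1.42-fold lower (limma adjusted p = 0.00588). Such a bound sets the mean of the brighter group against the weakest signal that was still detected on each array of the other. Without hSRY-OFF replicate 2 the brighter Tcf7 probe was no longer called (adjusted p = 0.0533). Satb1, a chromatin organiser of thymocytes that other cells also express, read 6.86, 7.19 and 7.31 against 7.01, 6.38 and 5.69 and was not called (-0.76, SE 0.32, limma adjusted p = 0.118). Of the hSRY-ON arrays, replicate 1 was the highest for Satb1 and overlapped hSRY-OFF. Without replicate 1 it was called lower (-1.10, adjusted p = 0.0197).

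Among the surface receptors, Cd2, an adhesion receptor of T and NK cells, had the smallest adjusted p of the members, at 7.78, 7.52 and 7.66 against 6.05, 6.26 and 6.56 (-1.37, SE 0.16, limma adjusted p = 0.00241). Its 3 hSRY-ON arrays lay close together (SD 0.26) and well below the lowest hSRY-OFF array. Cd6, a scavenger receptor family member on T cells, read 6.63, 7.03 and 7.24 against 4.78, 5.70 and 5.70 (-1.58, SE 0.29, limma adjusted p = 0.00927). Its other tested probes differed by -1.89 (adjusted p = 0.00936) and -1.44 (0.00247), and its remaining probe was at background. Cd27, a costimulatory receptor of T, NK and some B cells, read 8.94, 8.89 and 8.99 against 8.30, 7.75 and 8.24 (-0.84, SE 0.17, limma adjusted p = 0.0126). A second Cd27 probe differed by -0.95 (adjusted p = 0.0103), the remaining one was at background, and the call of the brightest was lost without hSRY-OFF replicate 1 (adjusted p = 0.0530). Cd28, the main costimulatory receptor of T cells, was detected on no array.

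Thy1 went the other way. It read 8.86, 8.79 and 8.75 in hSRY-OFF and 9.66, 9.74 and 9.90 in hSRY-ON (0.97, SE 0.12, limma adjusted p = 0.00272). Thy1 is a surface protein of mouse T cells that nerve cells and some fibroblasts also carry. Of the genes listed for those cells, Dcn of fibroblasts (0.98, limma adjusted p = 0.00977) and Mbp of myelin (0.98, 0.00408) were also higher, Col1a1, a fibroblast collagen, was lower (-0.60, 0.0494), Pdgfra was not called (0.19, 0.495) and Nefl, a nerve filament, was detected on no array. Their summed linear intensity ran from 11200 to 12900 in hSRY-OFF and from 11400 to 12800 in hSRY-ON. Their part in the Thy1 result was not tested.

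The T cell members that act in maturation, homing and survival were not called and had overlapping arrays. Ptcra, the partner of the receptor beta chain in immature thymocytes, read 5.30, 5.67 and 6.15 against 5.31, 5.74 and 5.31 (-0.26, SE 0.24, limma adjusted p = 0.451). Ccr7, which guides naive T cells to lymph nodes, differed by -0.16 (SE 0.26, limma adjusted p = 0.676) and was detected on 2 hSRY-OFF arrays and 1 hSRY-ON array. Il7r, the receptor for the survival factor interleukin 7, read 5.79, 5.89 and 6.17 against 5.52, 5.82 and 6.83 (0.10, SE 0.33, limma adjusted p = 0.838). A pair of further Il7r probes were detected on no array. Replicate 3 of hSRY-ON was the highest of all 6 arrays for Il7r, and without it the difference was -0.28 and still not called (adjusted p = 0.259).

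**Figure D2:**
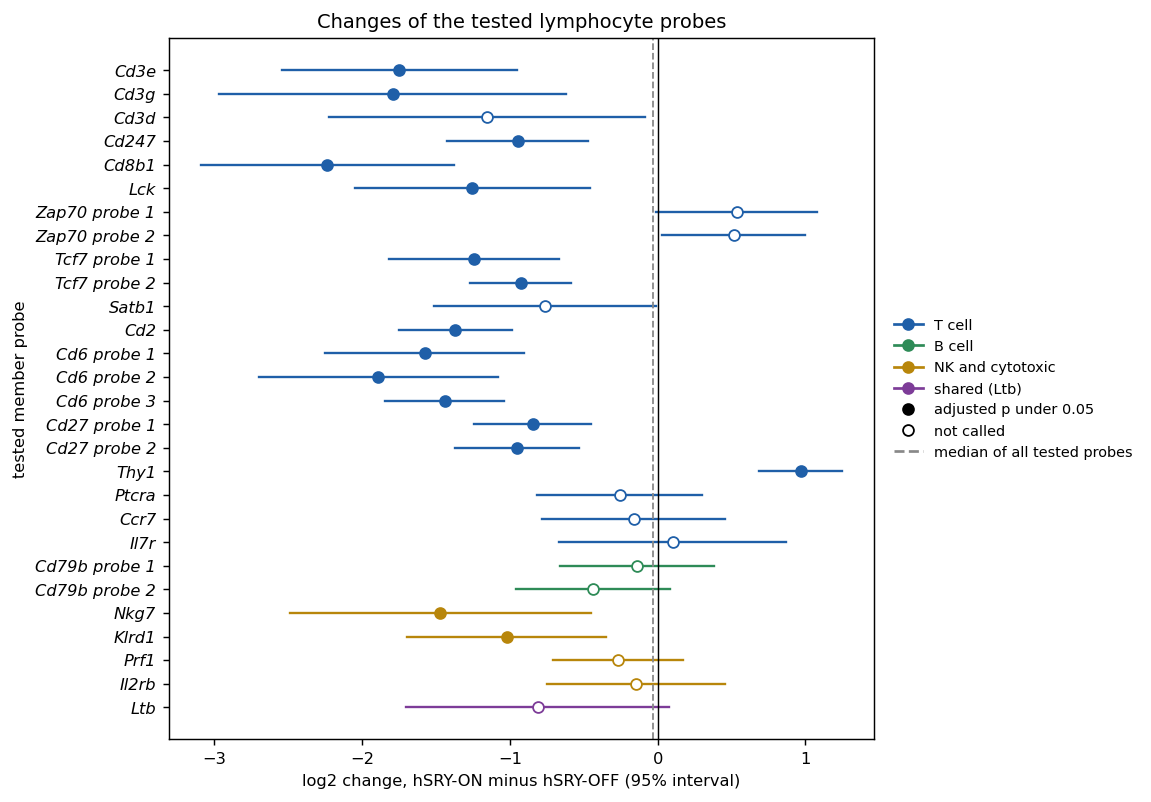
Fitted log2 difference, hSRY-ON minus hSRY-OFF (x axis), with its 95% interval for each of the 28 tested member probes (y axis, coloured by cell type). Filled circles passed an adjusted p of 0.05 and the dashed line is the median of all probes tested, -0.03; the 95% intervals of Cd8b1 (-3.09 to -1.38) and Thy1 (0.69 to 1.25) lie on opposite sides of 0, and Klrd1 and Tcf7 probe 2, undetected in hSRY-ON, are drawn at their fitted value, which is no bound.

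B cell members gave little to compare. Cd79b, the beta chain of the B cell receptor complex, was the 1 of 6 B cell genes with a probe that was tested, and its brighter probe read 8.60, 8.86 and 9.31 in hSRY-OFF and 8.59, 8.65 and 9.10 in hSRY-ON. The arrays overlapped, and the difference was -0.14 with a 95% interval from -0.66 to 0.38 (SE 0.22, limma adjusted p = 0.664). Its second probe read 7.34, 7.53 and 7.91 against 7.27, 6.77 and 7.43 (-0.44, SE 0.22, limma adjusted p = 0.180). By limma, 0 of the 2 were called and 0 had an unadjusted p under 0.05. Ms4a1 (CD20), Cr2, the complement receptor of mature B cells, and Pax5, the factor that fixes the B cell fate, were detected on no array. Blnk, a signalling adaptor, and Cd22, an inhibitory receptor, had probes detected on 2 or fewer arrays. No difference in these 5 genes was detectable at these intensities.

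Among the NK and cytotoxic members, Nkg7, a granule membrane protein of NK and killer T cells, read 7.31, 7.59 and 7.51 in hSRY-OFF and 5.95, 5.07 and 6.99 in hSRY-ON (-1.47, SE 0.43, limma adjusted p = 0.0438). Klrd1 (CD94), the shared chain of a family of NK receptors, read 5.42, 6.40 and 6.33 against 4.83, 4.90 and 5.35. It was detected on all hSRY-OFF arrays and on 0 hSRY-ON arrays, hence at least 1.56-fold lower (limma adjusted p = 0.0382). Prf1, the pore protein perforin, read 7.50, 7.57 and 8.05 against 7.22, 7.50 and 7.60 and was not called (-0.27, SE 0.19, limma adjusted p = 0.320), and its other probe was detected on no array. Il2rb, the receptor chain shared by interleukins 2 and 15, differed by -0.14 (SE 0.26, limma adjusted p = 0.705), and Gzmb, granzyme B, was detected on no array. The call of Nkg7 was lost without any 1 of hSRY-OFF replicates 1, 2 and 3 or hSRY-ON replicates 1 and 2 (adjusted p from 0.0742 to 0.128), with no detection filter (0.0720), and with the replicate number as a block (0.0537). The call of Klrd1 was lost without hSRY-ON replicate 1 (0.0727) or replicate 2 (0.107), and the gene was not tested where an hSRY-OFF array was left out. Its call was also lost without background correction (0.0569, or 0.0740 with a single scaling factor), with no detection filter (0.0595) and with array weights (0.0722). Ltb, which shapes lymphoid tissue, read 7.26, 7.53 and 7.54 against 6.09, 6.22 and 7.58, overlapped, and was not called (-0.81, SE 0.38, limma adjusted p = 0.152). Without hSRY-ON replicate 3 it was called lower (-1.28, adjusted p = 0.00268).

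Set side by side, 13 of 21 tested T cell probes were called lower and 1 higher, with a median difference of -0.95. For the B cell 0 of 2 were called, with a median of -0.29. For the NK and cytotoxic genes 2 of 4 were called lower, with a median of -0.65. Of all probes tested, 13.3% were called lower and 13.6% higher, with a median of -0.03. The member counts take in several probes of some genes, and probes that passed the filter mainly through the hSRY-OFF arrays. When only probes detected on all 6 arrays were tested, 6 T cell, 0 B cell and 0 NK probes were called lower. Of all probes, 14.3% were then called lower. The difference between the 3 cell types was not tested, and the B cell figures rest on 1 gene. Without background correction the medians were -0.42 for the T cell and -0.23 for the NK probes. In whole lung RNA, fewer lymphocytes and less of each RNA per lymphocyte cannot be told apart.

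The 3 hSRY-ON lungs differed among themselves. Over the 11 genes called lower (brightest tested probe), hSRY-ON replicate 3 was the highest of the hSRY-ON arrays in 8, replicate 2 in 2 and replicate 1 in 1. The median distance of these genes below the hSRY-OFF mean was -1.61 on replicate 1, -1.40 on replicate 2 and -0.70 on replicate 3. On replicate 3 too, each of the 11 was below the hSRY-OFF mean, with differences from -0.42 to -1.32. The SD was larger in hSRY-ON than in hSRY-OFF for 10 of the 11. Member probes detected numbered 31, 30 and 29 on the hSRY-OFF arrays and 18, 20 and 26 on the hSRY-ON arrays, and those of the T cell 23, 22 and 22 against 12, 15 and 19. The mean over the 16 tested T cell genes was 7.30, 7.49 and 7.52 in hSRY-OFF and 6.24, 6.49 and 7.02 in hSRY-ON, so that hSRY-ON replicate 3 lay between the other hSRY-ON arrays and the hSRY-OFF arrays.

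**Figure D3:**
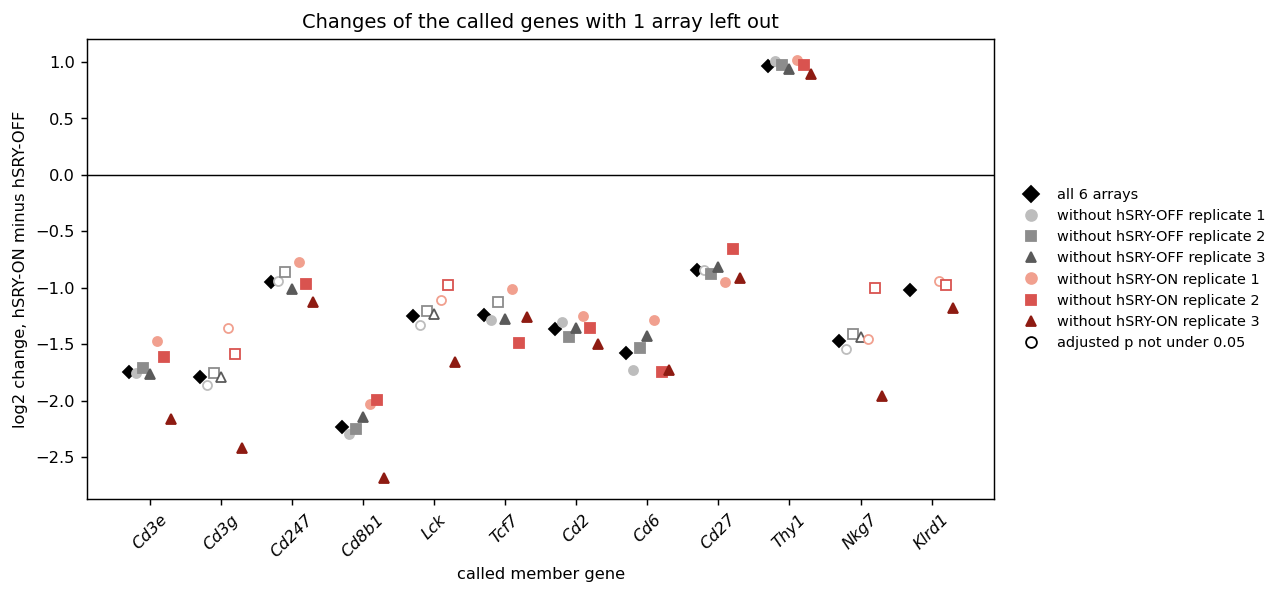
Log2 difference, hSRY-ON minus hSRY-OFF (y axis), of the 12 called member genes (x axis) from all 6 arrays (black diamond) and with each array left out in turn (grey, an hSRY-OFF array; red, an hSRY-ON array). Open symbols did not pass an adjusted p of 0.05, and Klrd1 has no grey symbols because it was not tested there. Every difference kept its sign, and leaving out hSRY-ON replicate 3 moved Cd8b1 from -2.24 to -2.69 and Cd3g from -1.79 to -2.42.

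With 1 array left out, the member probes called lower numbered 8 where hSRY-OFF replicate 1 was the one omitted, 8 for hSRY-OFF replicate 2, and between 10 and 17 for any other array. The share of all probes called lower also moved, to 4.41% and 4.84% without those 2 arrays. Cd8b1, Cd2, Cd6 and Thy1 were called in each alternative in which they were tested.

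The wider T cell programme, 36 genes that act with the members, was less even. A probe existed for 34, 17 were tested, 5 were called lower and 1 higher, and 17 were detected on no array. Over all probes tested, the shares were 13.3% lower and 13.6% higher. Ets1, a factor of lymphocytes and of blood vessel cells, read 13.44, 13.54 and 13.04 against 12.20, 12.26 and 12.09 (-1.16, SE 0.16, limma adjusted p = 0.00377). Bcl11b, which commits precursors to the T cell line, read 6.99, 6.51 and 6.95 against 5.37, 5.28 and 6.01 (-1.26, SE 0.23, limma adjusted p = 0.00975). Lef1, the relative of Tcf7, was undetected on the hSRY-ON arrays and at least 1.28-fold lower (limma adjusted p = 0.00247). Foxp3, the factor of regulatory T cells, was undetected on the hSRY-ON arrays too and at least 1.19-fold lower (limma adjusted p = 0.0401).

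In the B cell programme, 28 genes beside the members, 17 of the 24 with a probe were tested, 5 were called lower and 3 higher. These counts stand beside 13.3% lower and 13.6% higher among all probes tested. Faim3, a receptor of B cells, was undetected in hSRY-ON and at least 1.81-fold lower (limma adjusted p = 0.0107). Pou2af1, a coactivator of antibody genes, differed by -0.89 (SE 0.18, limma adjusted p = 0.0131). Cd74, the chaperone of class II antigen-presenting molecules, which macrophages and dendritic cells also make, read 13.60, 13.65 and 13.68 against 11.25, 11.80 and 13.15 (-1.58, SE 0.44, limma adjusted p = 0.0367). As for the CD3 genes, its hSRY-ON replicate 3 was nearest to hSRY-OFF. Those higher were Vpreb3, a partner of the early B cell receptor (1.39, SE 0.13, limma adjusted p = 0.00126), Vav1, an exchange factor of blood cells (1.46, SE 0.26, limma adjusted p = 0.00832), and Plcg2, a signalling lipase of B and myeloid cells (0.60, SE 0.15, limma adjusted p = 0.0238).

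Of 25 further NK and cytotoxic genes, 22 had a probe, 6 were tested and 13, the defining NK receptors Ncr1 and Klrk1 and the factors Eomes and Tbx21 among them, were detected on no array. Among the 6 tested, 1 was called lower and 3 higher, against 13.3% and 13.6% of all probes tested. Ccl5, a chemokine of killer lymphocytes, was lower, at 6.31, 7.07 and 7.21 against 5.48, 4.95 and 5.93 (-1.41, SE 0.32, limma adjusted p = 0.0183). Ctsw, a protease of cytotoxic cells, differed by -1.52 and just missed the threshold (SE 0.47, limma adjusted p = 0.0513). Those higher were Tyrobp, an adaptor shared with macrophages and neutrophils, at 8.96, 9.07 and 9.16 against 9.74, 10.21 and 10.25 (limma adjusted p = 0.00692), the granzyme Gzmm (0.61, SE 0.14, limma adjusted p = 0.0230) and Klrb1c (0.51, SE 0.15, limma adjusted p = 0.0468), which passed the detection filter through the hSRY-ON arrays.

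**Figure D4:**
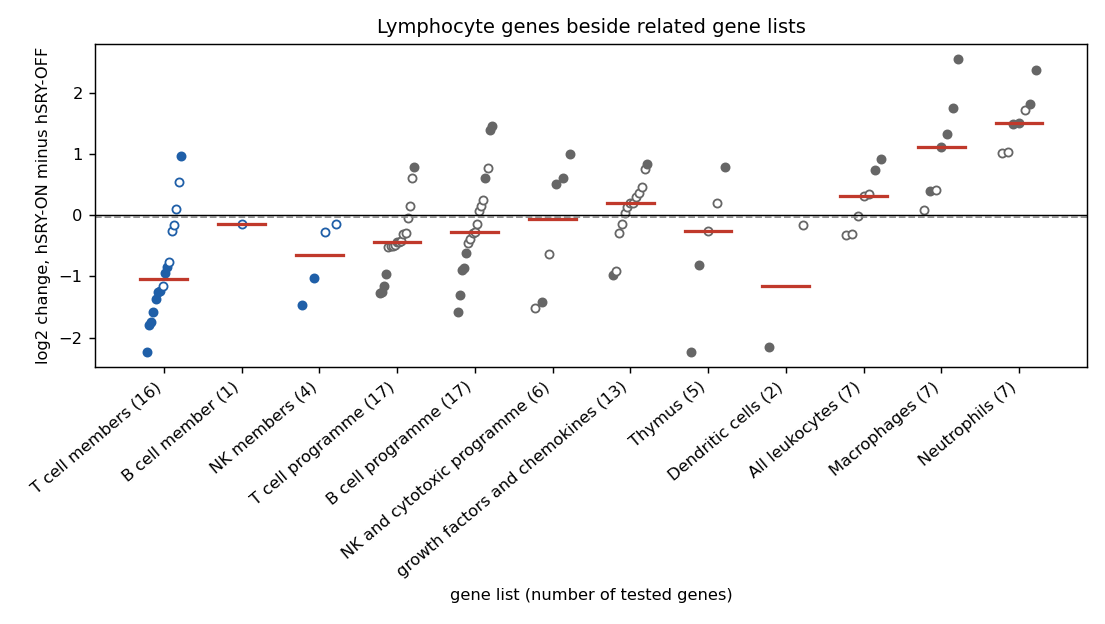
Log2 difference, hSRY-ON minus hSRY-OFF (y axis), of the tested genes of each list (x axis, brightest tested probe of a gene, number of genes in brackets). Blue marks the members, grey the further lists, filled circles an adjusted p under 0.05, the red bar the median and the dashed line the median of all probes. Most T cell members lie below 0, the medians of the macrophage and neutrophil lists lie above 0, and genes undetected in 1 group are drawn at their fitted value.

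Markers of other blood cells stood apart from the lymphocyte genes. Their counts are read beside the 13.6% of all probes tested that were called higher. Macrophage genes were called higher in 5 of 7 tested, with a summed linear intensity of 24400 to 26500 in hSRY-OFF and 34600 to 42300 in hSRY-ON. Neutrophil genes were called higher in 4 of 7, with sums of 8190 to 8630 against 16200 to 48500, the highest on hSRY-ON replicate 3, the array on which the T cell genes were nearest to hSRY-OFF. Of 7 tested genes of all leukocytes, Laptm5 and Ptpn6 were higher and Coro1a differed by -0.01 (SE 0.22, limma adjusted p = 0.978). Siglec5 of the macrophage list, Elane of the neutrophil list, and Ptprc, Cd48 and Itgb2 of the leukocyte list were detected on no array. The part of these cells in the lymphocyte results was not tested.

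H2-Ab1, a class II antigen-presenting molecule of dendritic and B cells, read 11.02, 11.49 and 11.34 against 8.64, 8.31 and 10.46 (-2.15, SE 0.52, limma adjusted p = 0.0245). It was 1 of 2 tested genes of an 8-gene dendritic cell list, the other being Ccr7, and 6, with Itgax and Flt3 among them, were detected on no array. The list's summed intensity ran from 2270 to 3110 in hSRY-OFF and from 508 to 1620 in hSRY-ON. That sum mostly restates H2-Ab1, by far the brightest gene of the list on every array. The part of dendritic cells in the results of Ccr7 and the other members was not tested.

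A thymus taken with a lung would add T cell RNA. Of 15 thymus genes, 13 had a probe and 8 were detected on no array: the thymocyte genes Rag1, Rag2, Dntt, Themis and Arpp21, and Prss16, Foxn1 and Aire of its epithelium. Of those tested, Cd8b1 and Cd1d1 were lower, and Ptcra and Ccl25 were not called. The list's summed intensity ran from 1190 to 1440 in hSRY-OFF and from 835 to 927 in hSRY-ON. As a check of the tissue label, the 7 lung genes, surfactant proteins and Nkx2-1 among them, were detected on all 6 arrays, with sums of 84400 to 89100 against 84900 to 93100. Sums of red blood cell genes were 58300 to 66500 against 58700 to 66300, and median raw intensity per array ran from 177.1 to 204.0.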

How the data were processed

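Total RNA of 6 lungs (3 hSRY-OFF, 3 hSRY-ON) was labelled as biotinylated cRNA and hybridised to Illumina MouseRef-8 v2.0 BeadChips. The authors deposited, per the file headers, 1 average bead intensity per probe and array, on a linear scale with no background correction or normalization seen in the values, and a detection p-value per probe deposited by the authors beside it. Bead summary software is not given in the sources used here; the submitters' processing notes name limma, without a version, and the study's methods name TCC, a package for counts. As the values are intensities, limma 3.58.1 (R 4.3.3) was used.

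Background was corrected by normexp from the detection p-values with an offset of 16, arrays were quantile-normalised and log2 was taken. The offset compresses differences of dim probes. Of 25697 probes, 13841 (53.9%) with detection p under 0.05 on at least 3 of 6 arrays were fitted with lmFit and eBayes (hSRY-ON minus hSRY-OFF, two-sided, no covariate), with Benjamini-Hochberg adjustment over all of them and a threshold of 0.05. Arrays detected 13191 to 14134 probes, no 2 arrays held identical values, and 3 arrays per group limit the precision. The fit was tested on simulated data. Where a probe was detected in 1 group only, its fold is a bound. Each gene is represented by its brightest tested probe over the 6 arrays, other probes of a member are given beside it, and every member is named. From the further lists the called genes with the smallest p were named (at most 3 in each direction), with genes whose absence defines a list; others were named after their values were seen. A few list genes that enter the counts are not reported here by name.

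The members and lists were chosen with earlier results of these data known. Alternatives covered the background correction, offset, normalization, detection filter, variance model, array weights, threshold, replicate block, 1 probe a gene and each array left out. RefSeq promoters (GRCm38.p6) were searched for exact motif matches; no coordinates of probes are given, since the deposited table names no build.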

Additional observations from a re-analysis of the deposited data

How the results depend on the processing

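Over the alternatives run on the members' brightest probes, 332 of 377 outcomes kept their direction and side of the threshold, 38 lost a call, 3 gained one and 4 changed sign. The sign changes were in genes that were not called: Il7r without hSRY-ON replicate 3 (-0.28, of a range with 1 array left out up to 0.38), Cd79b without hSRY-OFF replicate 3 (0.050, range down to -0.30), and Il2rb without hSRY-OFF replicate 1 (0.037) or hSRY-ON replicate 2 (0.087, range down to -0.35). At an adjusted p under 0.01, 1326 probes were called instead of 3728, and 6 member probes, all of T cell genes, were lower, as were 6 when only probes detected on all 6 arrays were tested. NK probes called lower numbered 1 without background correction, with or without a single scaling factor, with a detection p under 0.01, with array weights and with the replicate block, and 0 with no filter, with detection on all 6 arrays and at an adjusted p under 0.01. The T cell median was -0.42 without background correction, -0.45 with a single scaling factor as well, and -0.31 with no filter, and the NK median -0.23, -0.27 and -0.21, and -0.27 with detection on all 6 arrays; with no filter 51 member probes, undetected ones included, were used. With 1 array left out, all probes called ranged from 1504 to 4384, member probes called lower from 8 to 17, called higher from 1 to 2, T cell probes lower from 8 to 14 and NK probes lower from 0 to 2, with medians from -1.19 to -0.96 (T cell), -0.44 to -0.11 (B cell) and -0.77 to -0.27 (NK). B cell probes called lower were 0 by limma under every alternative run. Otherwise the cause of these shifts was not tested. With each group's mean taken off, arrays of the same number gave r = -0.107, 0.0957 and -0.0927. Centring within groups of 3 arrays ties these values to each other. They therefore cannot decide whether the replicate numbers pair the samples. With the replicate block 19.2% of all probes and 15 of 28 member probes were called, all 15 among the 16 called without it. Scaling by cyclic loess or the median kept all 16 member calls, and probes near background set the limit on what could be compared.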

Other observations

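Factors that feed and attract lymphocytes were mostly not called. Of 20 growth factors, chemokines and adhesion molecules, 18 had a probe and 13 were tested. Vcam1, the adhesion molecule on which lymphocytes stop at a vessel wall, was lower, at 11.80, 11.87 and 11.72 in hSRY-OFF against 10.85, 10.53 and 11.07 in hSRY-ON (-0.98, SE 0.16, limma adjusted p = 0.00646). Cx3cl1, a membrane-bound chemokine, was higher, at 6.98, 7.26 and 7.55 against 8.14, 8.24 and 7.93 (0.84, SE 0.18, limma adjusted p = 0.0148). Il7, the survival factor of naive T cells, differed by 0.14 (SE 0.16, limma adjusted p = 0.544), and Il15, that of NK cells, by 0.35 (SE 0.17, limma adjusted p = 0.164). Cxcl12, which holds B cell precursors, differed by -0.29 (SE 0.20, limma adjusted p = 0.301). Tnfsf13b (BAFF), the survival factor of B cells, was above hSRY-OFF on all 3 hSRY-ON arrays but was not called (0.76, SE 0.26, limma adjusted p = 0.0732). Ccl19, Madcam1, Tslp and the receptor S1pr1 were detected on no array.

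Of the 5 plasma cell genes, Igj and Tnfrsf17, those of antibody-secreting cells themselves, were detected on no array. Xbp1, which other secretory cells also use, differed by -0.07 (SE 0.11, limma adjusted p = 0.664), and Sdc1, also of epithelium, by 0.40 (SE 0.16, limma adjusted p = 0.108).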
